A study of Mus musculus with 8 samples.

Results

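The Wnt ligands studied here are Wnt1, Wnt2b, Wnt3a, Wnt4, Wnt5a, Wnt5b, Wnt7a, Wnt7b, Wnt8b and Wnt11, a named set of Wnt family genes of the hindbrain and its choroid plexus. They were measured by all probe sets whose single gene symbol in the array annotation is one of these 10 names, which gave 20 of the 45037 probe sets that are not controls. All 10 genes were found, among 18193 genes in all. The tissue was choroid plexus of the hindbrain ventricle, taken at embryonic day 13 from mice, and total RNA was hybridised to 4 arrays labelled Otx2 k.o. and 4 labelled Wildtype, each a biological replicate per the labels. Both groups had a mixed strain background, received no treatment and came from the same litters. For the knockout the labels cite a published Otx2 deficient mouse strain. The sources used here do not give the promoter or time of any conditional deletion, the embryos' sex or how many embryos stand behind an array. The study asked how this tissue differs between the genotypes.

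Wnt proteins are secreted, lipid-modified glycoproteins. The acyltransferase Porcn modifies them, the carrier Wls brings them to the cell surface, and they bind Frizzled receptors with Lrp5 or Lrp6 to stabilise β-catenin, or with Ror and Ryk receptors to act on cell polarity and movement. In the embryonic hindbrain Wnt1 and Wnt3a are known from the dorsal midline, where the roof plate and rhombic lip border the choroid plexus, and Wnt5a is known from the choroid plexus itself. Otx2 binds DNA through a homeodomain and is known from the developing forebrain, midbrain and choroid plexus epithelium.

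Between the groups, 3 of the 10 ligand genes rose and 2 fell in the arrays labelled knockout. Wnt4 rose by 1.02 log2 units, which is 2.03-fold, and Wnt11 and Wnt1 rose by 0.35 and 0.31. Wnt5a fell by 0.41, or 1.33-fold. Wnt8b fell by 0.75 in its brightest probe set and by 0.32 in the mean of its 3 probe sets, at a level that cannot be told from background in the knockout-labelled arrays, so no fold is given for it. Wnt2b, Wnt3a, Wnt5b, Wnt7a and Wnt7b did not pass the test. A gene passed at a Benjamini-Hochberg adjusted p under 0.05 in a limma fit over all genes, each represented by its brightest probe set. Over all genes, 7.84% were called higher and 11.7% lower by the same rule. The median log2 fold change was 0.29 over the 10 ligands and 0.00049 over all genes. The number that rose was 1 without wildtype replicate 4, where Wnt4 alone passed, and 4 without knockout-labelled replicate 2, while the number that fell was 2 in each of the 8 fits without 1 array.

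The arrays carry limits that bear on each of these values. Otx2 itself was higher in the arrays labelled knockout. Its single probe set gave log2 levels of 12.38, 12.46, 12.44 and 12.48 there and 12.00, 12.05, 11.97 and 11.85 in the wildtype arrays, a log2 fold change of 0.47 (adjusted p = 0.000648, limma). The sources used here do not place its probes relative to the deleted part, so it may check nothing, and each direction rests on the labels. Array medians lay between 5.85 and 5.90. Most markers of the labelled tissue were bright. Of 13 measured genes of choroid plexus epithelium, 12 lay above the 85th percentile of all probe sets in mean level, including Ttr, Folr1 and Aqp1. Other lists reached that level too, with 10 of 12 stroma, 7 of 10 endothelium and 5 of 14 neuron genes. The level alone therefore does not settle the label. Of the 13 epithelial genes 11 fell and 1, Otx2, rose. Of 12 stroma genes 10 rose and 1 fell, and of 10 macrophage genes 9 rose. Over all genes, 7.84% were called higher and 11.7% lower. In bulk RNA, fewer cells of a type and less RNA per cell cannot be told apart.

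Sequences upstream of the start site are shown for Wnt4, which rose in both of its probe sets, for Wnt8b, the called ligand that fell and has an entry, and for Wnt11, whose windows held both motifs searched. They are the 250 bases before each start site in RefSeq, build GRCm38.p6, all on the plus strand and written from 5′ to 3′. Capitals mark TAATCC, the site bound by Otx-type homeodomains, or ATCAAAG, the site of TCF/LEF factors, each searched on both strands. These motifs do not overlap each other in any window shown.
Wnt4, chr4:137277385-137277634: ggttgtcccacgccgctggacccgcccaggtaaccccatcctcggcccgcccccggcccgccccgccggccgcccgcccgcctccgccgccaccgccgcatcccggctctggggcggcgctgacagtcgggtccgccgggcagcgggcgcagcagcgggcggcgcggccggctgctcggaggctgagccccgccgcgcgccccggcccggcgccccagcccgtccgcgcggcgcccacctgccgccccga
Wnt8b, chr19:44493222-44493471: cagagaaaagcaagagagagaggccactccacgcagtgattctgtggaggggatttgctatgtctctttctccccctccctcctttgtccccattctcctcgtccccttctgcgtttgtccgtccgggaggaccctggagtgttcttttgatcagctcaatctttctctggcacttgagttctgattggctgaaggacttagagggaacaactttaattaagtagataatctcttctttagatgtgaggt
Wnt11, first start site, chr7:98834862-98835111: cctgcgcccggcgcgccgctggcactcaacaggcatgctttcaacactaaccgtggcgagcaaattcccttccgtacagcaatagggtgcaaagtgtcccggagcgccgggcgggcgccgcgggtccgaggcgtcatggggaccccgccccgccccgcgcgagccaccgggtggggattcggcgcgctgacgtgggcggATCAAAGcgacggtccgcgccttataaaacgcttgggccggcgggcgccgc
Wnt11, other start site, chr7:98838595-98838844: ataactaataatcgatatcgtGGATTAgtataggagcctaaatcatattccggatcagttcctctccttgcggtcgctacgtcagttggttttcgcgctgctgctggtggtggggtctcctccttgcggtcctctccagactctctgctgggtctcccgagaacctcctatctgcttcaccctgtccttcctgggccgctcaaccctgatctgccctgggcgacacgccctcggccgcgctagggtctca

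Of the 10 ligands, 8 matched the RefSeq promoter table, with 11 windows. Wnt5a and Wnt7b were not matched. TAATCC was found in 1 of the 11 windows, that of the other start site of Wnt11, on the reverse strand as GGATTA and 229 bases before the start site. Of all 32851 windows in the table, 6.25% held this motif. ATCAAAG was found in 2 of the 11, the first start site of Wnt11 and 1 of 3 windows of Wnt5b, against 3.21% of all windows. The windows of Wnt4 and Wnt8b held neither string of letters. The Wnt4 window had a GC content of 85.2% and the Wnt8b window one of 48.4%, where the median of all windows was 52.4%. A match is a description of the letters and not a binding site.

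**Figure D1:**
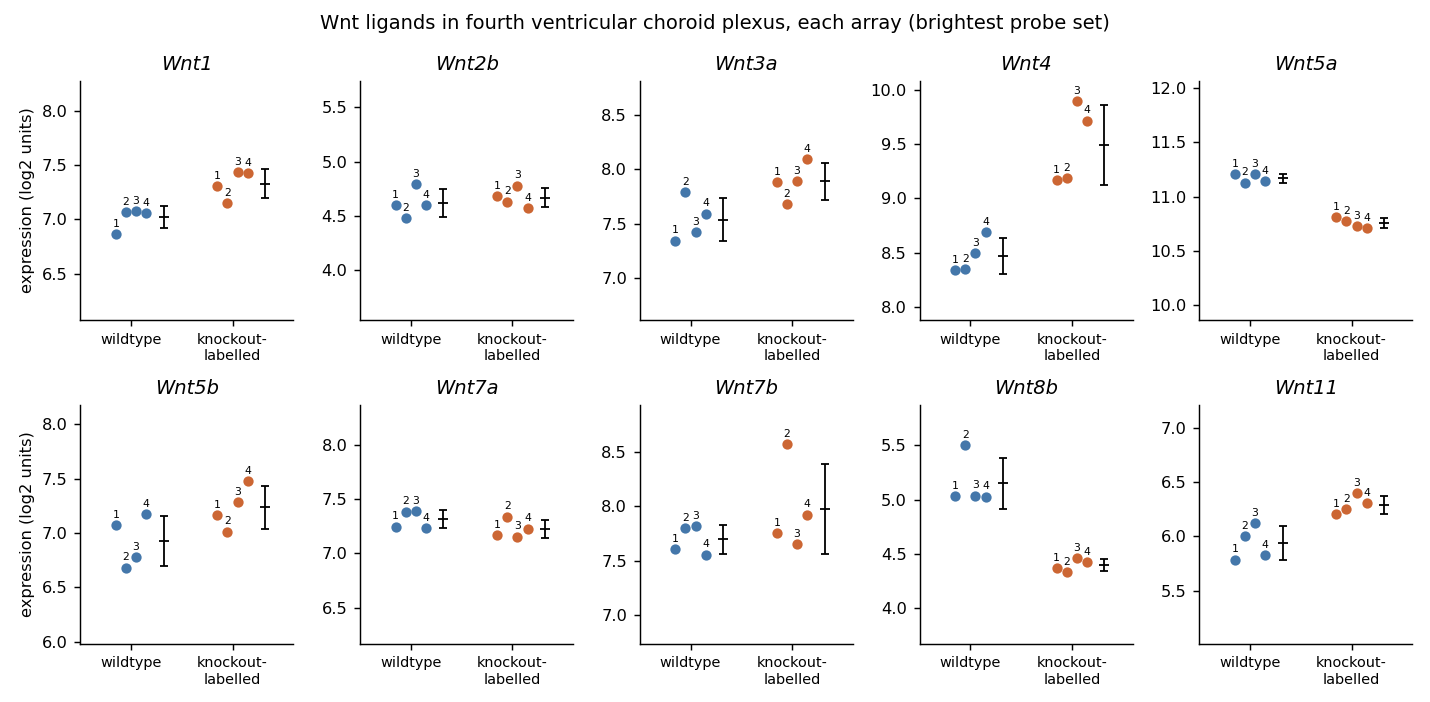
Expression in log2 units of the brightest probe set of each Wnt ligand, with 1 point per array, the replicate number above it, and the mean ± SD of each group of 4 beside it in black. Each panel spans the same height of 2.2 log2 units around the gene's own mean, and levels cannot be compared between genes. The groups stand apart for Wnt1, Wnt4, Wnt5a, Wnt8b and Wnt11 and overlap for the other 5 genes.

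Wnt4, a ligand known for its part in kidney, gonad and neural development, was read by both of its probe sets in the same way. The brighter one, 1450782_at, read 9.17, 9.19, 9.89 and 9.72 log2 units in knockout-labelled replicates 1 to 4 and 8.34, 8.35, 8.49 and 8.69 in wildtype replicates 1 to 4. Every knockout-labelled reading exceeded every wildtype reading, and within the knockout-labelled group replicates 3 and 4 lay above 1 and 2. The group means were 9.49 ± 0.37 and 8.47 ± 0.16 (SD, n = 4 each), with a log2 fold change of 1.02 (limma, adjusted p = 0.00230). By size of rise Wnt4 ranked 115 among the 18193 genes. The dimmer probe set, 1441687_at, read 8.23, 8.24, 9.01 and 8.89 in the knockout-labelled arrays and 7.36, 7.65, 7.64 and 7.99 in the wildtype arrays. Here too the groups did not overlap and replicates 3 and 4 were the high ones. Its log2 fold change was 0.93, with a 95% interval from 0.49 to 1.38 (adjusted p = 0.0130 in the fit over all probe sets). Leaving out 1 array at a time gave log2 fold changes of Wnt4 between 0.89 and 1.13, all past the threshold.

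The same arrays differed in their stroma and macrophage markers. The mean level of the 10 macrophage genes was 9.44, 9.40, 9.85 and 9.76 in knockout-labelled replicates 1 to 4. In wildtype replicates 1 to 4 it was 8.88, 8.82, 8.66 and 8.90. It too was higher in knockout-labelled replicates 3 and 4, but in the wildtype arrays it was lowest in replicate 3, unlike Wnt4. The mean level of the 12 stroma genes was 10.78, 10.53, 10.95 and 10.74 in knockout-labelled replicates 1 to 4 and between 10.13 and 10.26 in the wildtype arrays. Unlike in Wnt4, knockout-labelled replicate 1 lay above replicate 4 in this mean level. That of 10 pericyte genes, of which 4 rose and 2 fell, lay between 8.31 and 8.62 in the knockout-labelled arrays and between 8.18 and 8.24 in the wildtype arrays. The pericyte calls are 40% and 20%, beside 7.84% and 11.7% of all genes. No gene of the stroma or macrophage list lay below the 72nd percentile of all probe sets in mean level. Their part in the rise of Wnt4 was not tested.

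The 5 genes whose log2 values followed the brightest Wnt4 probe set most closely over the 8 arrays were Cmtm7, Pcdh7, Myrf, Ifitm1 and Krt7. Their Pearson correlations with it ran from 0.988 to 0.993, and those of the deviations from the group means from 0.946 to 0.976. These correlations describe the same 8 arrays, whose groups stand apart. Cmtm7 went from 9.49 ± 0.12 to 10.14 ± 0.19 log2 units, and Ifitm1, an interferon-induced membrane protein, from 10.09 ± 0.20 to 11.03 ± 0.36. Krt7, a keratin of simple epithelia, went from 7.77 ± 0.22 to 8.57 ± 0.32.

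Wnt1 and Wnt3a, the ligands of the dorsal hindbrain midline, gave smaller values of the same sign. The single Wnt1 probe set read 7.30, 7.15, 7.44 and 7.42 in the knockout-labelled arrays and 6.87, 7.07, 7.08 and 7.06 in the wildtype arrays. The groups did not overlap, but knockout-labelled replicate 2 lay close to the highest wildtype array. The log2 fold change was 0.31 (limma, adjusted p = 0.0272). This call was lost without knockout-labelled replicate 1, 3 or 4 and without wildtype replicate 1, 2 or 4, with adjusted p up to 0.0732, and with the sex covariate (adjusted p = 0.0729).

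Wnt3a read 7.89, 7.68, 7.89 and 8.10 in the knockout-labelled arrays and 7.34, 7.79, 7.43 and 7.59 in the wildtype arrays. Wildtype replicate 2 lay above knockout-labelled replicate 2, so the groups overlapped. The log2 fold change was 0.35 with a 95% interval from 0.091 to 0.61 over all probe sets, and the adjusted p over genes was 0.0620. It passed without knockout-labelled replicate 2 (adjusted p = 0.0282), without wildtype replicate 2 (0.0300), with a trended variance prior (0.0409), with quantile normalization (0.0443) and with dim genes removed (0.0311). Of 10 measured roof plate and rhombic lip markers 2 rose and 2 fell, or 20% each, beside 7.84% and 11.7% of all genes. The means of that list overlapped between the groups, at 8.83 to 9.31 in the knockout-labelled arrays and 8.82 to 9.21 in the wildtype arrays.

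Wnt5a, which acts mainly through Ror receptors and is expressed by choroid plexus epithelium, fell in 3 of its 4 probe sets. The brightest, 1436791_at, read 10.81, 10.78, 10.73 and 10.71 in the knockout-labelled arrays and 11.21, 11.13, 11.21 and 11.14 in the wildtype arrays. Both groups were tight, and no array of one group reached the other. The log2 fold change was -0.41 (adjusted p = 0.000685 over genes). The next, 1448818_at, stood at 9.34 ± 0.06 in the knockout-labelled arrays against 9.76 ± 0.07, which is a difference of -0.42 (adjusted p = 0.00232 over probe sets). The third, 1437673_at, changed by -0.34 (adjusted p = 0.0435). With 1 array left out it failed the threshold in 6 of 8 fits, all but those without replicate 2 of either group, with adjusted p up to 0.114. The dimmest, 1456976_at, is far weaker, at a mean of 6.09, and read 6.10 ± 0.14 in the knockout-labelled and 6.08 ± 0.12 in the wildtype arrays, with a difference of 0.02 and a 95% interval from -0.18 to 0.22. In the same arrays the mean level of the 13 epithelial markers was 10.62 to 10.94 in the knockout-labelled group and 11.57 to 11.69 in the wildtype group. The lowest of these markers lay at the 32nd percentile of all probe sets in mean level, and their part in the fall of Wnt5a was not tested.

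Its close relative Wnt5b was read by 2 probe sets, both with a suffix that marks probes shared between transcripts or genes. The brighter, 1439373_x_at, read 7.17, 7.01, 7.28 and 7.48 in the knockout-labelled arrays and 7.07, 6.68, 6.78 and 7.17 in the wildtype arrays, and the groups overlapped. Its log2 fold change was 0.31 (adjusted p = 0.141 over genes). With the replicate number as a block the adjusted p was 0.0382, so the gene passed in that fit. The same probe set with the same block in the fit over all probe sets did not pass (adjusted p = 0.0517). The dimmer probe set, 1422602_a_at, went from 6.37 ± 0.05 to 6.60 ± 0.15, without overlap, and did not pass (log2 fold change 0.23, adjusted p = 0.103 over probe sets).

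Wnt11, a ligand of the non-canonical branch known from kidney and heart, read 6.20, 6.25, 6.39 and 6.30 in the knockout-labelled arrays and 5.78, 6.00, 6.12 and 5.83 in the wildtype arrays. All 4 knockout-labelled arrays were higher, the closest pair being knockout-labelled replicate 1 and wildtype replicate 3. The log2 fold change was 0.35 (limma, adjusted p = 0.0182). The call over genes was lost without wildtype replicate 4 (adjusted p = 0.0575) and with the sex covariate (0.0515). In the limma fit over all probe sets (adjusted p = 0.0279) it was less firm. With 1 array left out it failed there in 5 of 8 fits, with adjusted p up to 0.0849.

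**Figure D2:**
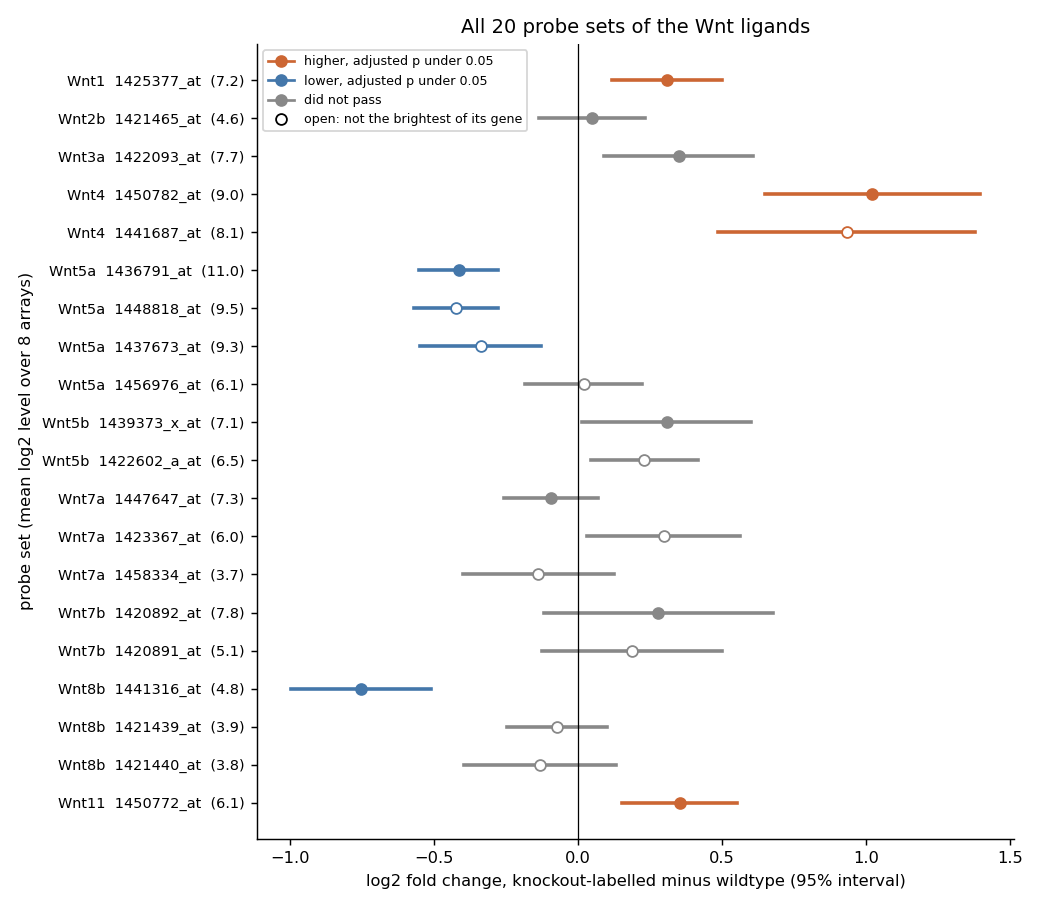
Log2 fold change of each of the 20 Wnt ligand probe sets, knockout-labelled minus wildtype, with its 95% interval from the limma fit over all probe sets. Filled points are the brightest probe set of a gene and open points its others, the number in brackets is the mean log2 level, orange and blue mark higher and lower calls, and grey marks those that did not pass. Both Wnt4 probe sets lie right of 0 and the 3 brightest of Wnt5a left of it.

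Wnt8b, known from the dorsal forebrain midline and hippocampal primordium, fell in 1 of its 3 probe sets, at a dim level. Its brightest probe set, 1441316_at, read 4.37, 4.33, 4.46 and 4.42 in the knockout-labelled arrays and 5.03, 5.50, 5.04 and 5.03 in the wildtype arrays. Wildtype replicate 2 stood above the other 3, and all wildtype arrays lay above all knockout-labelled ones. The log2 fold change was -0.75 (adjusted p = 0.00103 over genes), and it was -0.64 without wildtype replicate 2. The knockout-labelled mean of 4.40 lies near the lower quartile of all probe sets, 4.34, and with no detection calls used here a level this low cannot be told from background. The other 2 probe sets of the gene are dimmer still and changed by -0.07 and -0.13, neither of which passed. The mean of the 3 probe sets gave a log2 fold change of -0.32 and kept the call (adjusted p = 0.00839).

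Wnt7a and Wnt7b, which are known to drive blood vessel growth in the brain, did not pass. For Wnt7b the brighter probe set read 7.75, 8.57, 7.65 and 7.92 in the knockout-labelled arrays and 7.61, 7.80, 7.82 and 7.56 in the wildtype arrays. Knockout-labelled replicate 2 was the high one, and the other 7 arrays lay between 7.56 and 7.92. The log2 fold change was 0.28 over all arrays (adjusted p = 0.342) and 0.08 without that array. The dimmer Wnt7b probe set was also highest in knockout-labelled replicate 2, at 5.53 against 4.81 to 5.26 in the others of its group. That array had the highest mean of the 14 neuron markers too, at 9.31, where the other knockout-labelled arrays read 8.21 to 8.64 and the wildtype arrays 7.19 to 8.66. Within the wildtype arrays the neuron mean was highest in replicate 1, at 8.66, where the brighter Wnt7b probe set read 7.61. Among the wildtype arrays that probe set was highest in replicate 3, at 7.82, where the neuron mean was 7.38. Of the 14 neuron markers 3 rose, Calb2 by 3.84, Gria1 by 3.32 and Reln by 1.67, and the other 11 did not pass. That is 21.4% higher and 0% lower, beside 7.84% and 11.7% of all genes. None of the 14 lay below the 55th percentile in mean level, and their part in the Wnt7b value was not tested.

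The 3 probe sets of Wnt7a disagreed in sign, at -0.09, 0.30 and -0.14 from the brightest to the dimmest, and each missed the threshold (adjusted p = 0.491, 0.145 and 0.538 over probe sets). The middle one, 1423367_at, read 6.40, 6.19, 5.80 and 6.26 in the knockout-labelled arrays and 5.86, 5.75, 5.94 and 5.92 in the wildtype arrays. Knockout-labelled replicate 3 was the low one there, and the probe set passed without it (adjusted p = 0.0157).

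Wnt2b, a ligand of the cortical hem, read 4.68, 4.63, 4.78 and 4.58 in the knockout-labelled arrays and 4.60, 4.48, 4.79 and 4.60 in the wildtype arrays, at the 29.8th percentile of all probe sets by level. The groups overlapped throughout, with a log2 fold change of 0.05 and a 95% interval from -0.14 to 0.23.

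Over the probe sets, 4 of the 20 were called higher and 4 lower, where 5.27% and 7.46% of all probe sets were. Probe sets of a gene share its transcripts and are not independent of each other, and the 4 lower ones are 3 of Wnt5a and 1 of Wnt8b. Leaving out knockout-labelled replicate 4 took the number called higher to 2, as did leaving out replicate 1 or 4 of the wildtype. In 9 of the 20 the groups did not overlap, 5 with the knockout-labelled arrays above and 4 below, against 8.04% and 10.8% of all probe sets.

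**Figure D3:**
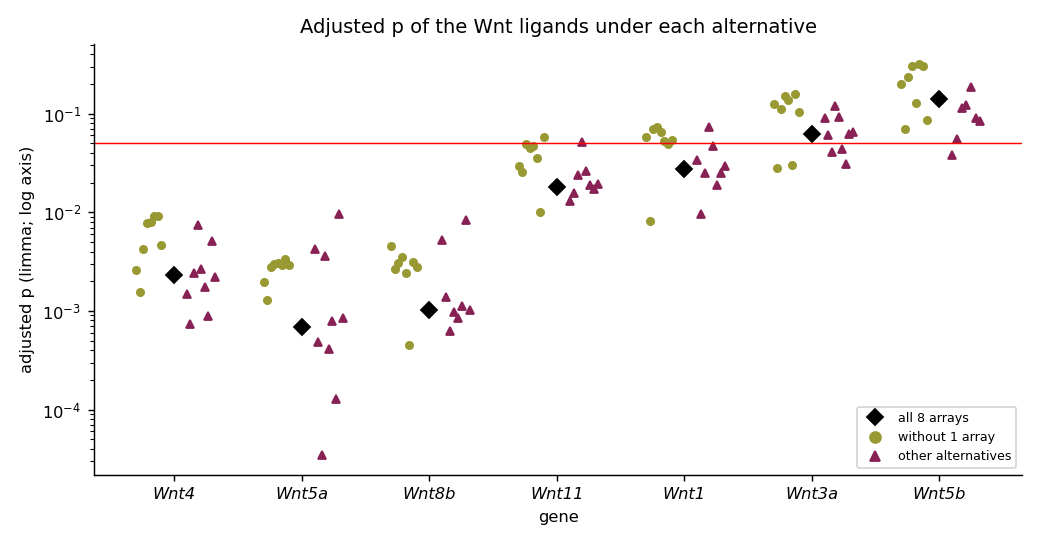
Adjusted p of 7 Wnt ligand genes (limma, log axis) over all 8 arrays (black diamonds), without 1 array (circles) and under the other alternatives apart from the changed thresholds (triangles). The red line is at 0.05. All points of Wnt4, Wnt5a and Wnt8b lie below the line, and those of Wnt11, Wnt1, Wnt3a and Wnt5b lie on both sides.

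The remaining Wnt ligands on the array held further risers. Of 9 measured genes 2 rose and 0 fell in limma's test, with 4 of the 9 at an unadjusted p under 0.05. That is 22.2% and 0%, beside 7.84% and 11.7% of all genes, and the median log2 fold change of the 9 was 0.07. Wnt6 read 7.38, 7.27, 7.50 and 7.49 in the knockout-labelled arrays and 6.77, 6.79, 6.58 and 7.03 in the wildtype arrays. Each knockout-labelled array was higher than each wildtype array, for a rise of 0.62 (adjusted p = 0.00191). Wnt9a went from 8.49 ± 0.10 to 8.96 ± 0.15, a rise of 0.47 (adjusted p = 0.00437), also without overlap. The mean of the Wnt9a probe sets rose by 0.22 (adjusted p = 0.0491).

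Genes for the making, release and matrix binding of Wnt proteins were called in both directions. Of 10 measured genes 4 rose and 4 fell, or 40% each, beside 7.84% and 11.7% of all genes, with a median of -0.07. Sulf1 and Sulf2 encode sulfatases that trim heparan sulfate and so alter how Wnt proteins bind at the cell surface. Sulf1 stood at 10.75 ± 0.20 in the knockout-labelled arrays against 11.98 ± 0.08 and so fell by 1.23 (adjusted p = 4.32e-05), while Sulf2 rose by 0.60. With shared probe sets removed, the Sulf2 difference was 0.16 and did not pass (adjusted p = 0.483). The Wnt-cleaving protease gene Trabd2b fell by 0.76 and the glypican gene Gpc4 rose by 0.80. Wls, the carrier of Wnt proteins, fell by 0.33 (adjusted p = 0.00593), but the mean of its probe sets missed the threshold at -0.18 (adjusted p = 0.0503). Porcn was at -0.11 and did not pass (adjusted p = 0.446). Sulf2, Wls and Porcn were picked for naming after their values were seen. The number that rose was 2 without wildtype replicate 3 and 2 without shared probe sets.

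Among 18 Frizzled receptors and co-receptors 6 rose and 2 fell, or 33.3% and 11.1%, beside 7.84% and 11.7% of all genes. The median was 0.10. Fzd10 rose by 0.70 (adjusted p = 9.13e-05). Fzd5 read 6.66, 6.39, 6.96 and 6.84 in the knockout-labelled arrays and 7.61, 7.76, 7.70 and 7.93 in the wildtype arrays, which did not overlap, and fell by 1.03. With the mean of the probe sets of each gene, Fzd10 rose by 0.35 and Fzd5 fell by 0.58. Fzd4, the receptor of vascular Wnt signalling, fell by 0.72. Ror2, a co-receptor for Wnt5a, rose by 0.51 and Ror1 by 0.36, and the Wnt7 co-receptors Reck and Adgra2 rose by 0.58 and 0.40. These last 4 genes were also picked after their values were seen. Ror1 and Adgra2 passed without knockout-labelled replicate 2 and lost the call in each of the other 7 fits with 1 array left out, with adjusted p up to 0.0957 and 0.113. Adgra2 also lost it under the replicate block (0.0629). The mean of the Ror1 probe sets was 0.053 (0.605).

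Of 12 secreted antagonists 5 rose and 1 fell, or 41.7% and 8.33%, beside 7.84% and 11.7% of all genes, with a median of 0.38. Dkk2, a secreted modulator of Lrp co-receptors, read 11.12, 11.13, 11.21 and 10.97 in the knockout-labelled arrays and 8.37, 8.27, 8.35 and 8.34 in the wildtype arrays. The rise of 2.78 was far beyond the spread of either group. Frzb rose by 0.48, and Sostdc1, which binds both Lrp6 and bone morphogenetic proteins, fell by 1.25. Of 9 R-spondin and receptor turnover genes 2 rose and 0 fell (limma, with 4 of the 9 at an unadjusted p under 0.05). That is 22.2% and 0%, beside 7.84% and 11.7% of all genes, with a median of 0.07. The Wnt enhancer Rspo1 rose by 1.57, from 7.33 ± 0.12 to 8.90 ± 0.21, and its receptor Lgr4 by 0.33. Lgr4 did not pass when wildtype replicate 1 was left out (adjusted p = 0.0534), when wildtype replicate 2 was (0.0638), or with the mean of its probe sets (0.224). 1 of the 9 fell with the replicate number as a block, with array weights, with the sex covariate and without wildtype replicate 1.

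In the intracellular core of the β-catenin branch all calls were close to the threshold. Of 17 measured genes 2 rose and 1 fell, or 11.8% and 5.88%, beside 7.84% and 11.7% of all genes. The median was 0.04. Bcl9 and Dvl1 rose by 0.33 and 0.22 and the DNA-binding factor Lef1 fell by 0.26, each with an adjusted p between 0.0410 and 0.0464. With the replicate number as a block 0 of the 17 passed in limma's test (adjusted p of 0.0533 for Bcl9, 0.0967 for Dvl1 and 0.0665 for Lef1). Without the block 4 of the 17 had an unadjusted p under 0.05. With 1 array left out, each of the 3 failed the threshold in 7 of 8 fits.

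The target genes of β-catenin that were listed as such rose or did not pass. Lef1, which fell, is counted in the core list and not here. Of 14 measured genes 8 rose and 0 fell (limma, with 8 of the 14 at an unadjusted p under 0.05). That is 57.1% and 0%, beside 7.84% and 11.7% of all genes, with a median of 0.35. The feedback inhibitor Axin2 read 10.51, 10.46, 10.69 and 10.79 in the knockout-labelled arrays and 10.04, 10.11, 9.97 and 10.08 in the wildtype arrays. Within the knockout-labelled group replicates 3 and 4 were the higher ones. The groups did not overlap, and the rise was 0.56 (adjusted p = 0.00120). The matrix protein gene Ccn4 rose by 0.51, and the Dishevelled antagonist Nkd2 by 0.35. The count rests on several arrays. Leaving out knockout-labelled replicate 1 gave 4 and leaving out knockout-labelled replicate 4 gave 2. Leaving out wildtype replicates 1 to 4 in turn gave 3, 5, 3 and 4, the sex covariate gave 2, and removing shared probe sets gave 5. Axin2 and Ccn4 passed in each of those fits. Nkd2 did not pass without knockout-labelled replicate 4 (adjusted p = 0.0540), without wildtype replicate 1 (0.0559) or 2 (0.0618), or with the sex covariate (0.0552).

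Of 17 genes of planar polarity and other non-canonical branches 4 rose and 2 fell, or 23.5% and 11.8%. The median was 0.165. Prickle2, a polarity protein, rose by 0.81, and Nfatc4, a calcium-regulated transcription factor, by 0.54. The formin gene Daam1 fell by 0.71. With the mean of the probe sets of each gene, Nfatc4 rose by 0.25 and Daam1 fell by 0.42. Over all 106 measured pathway genes outside the 10 ligands, 33 rose and 10 fell, or 31.1% and 9.43%, beside 7.84% and 11.7% of all genes. The median of the 106 was 0.08. All genes include dim ones, and in the fit over the 9096 genes above the median level 1459 were called higher and 1816 lower. The lists were chosen with earlier results of these data known. Without wildtype replicate 3 the number of pathway genes that rose was 21.

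**Figure D4:**
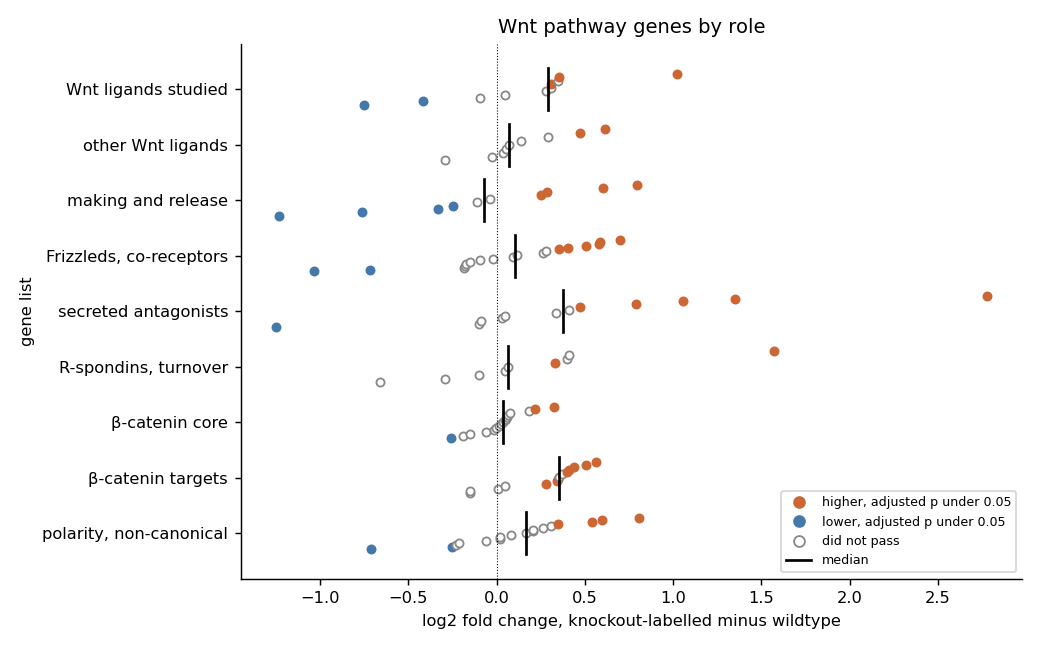
Log2 fold change, knockout-labelled minus wildtype, of each measured gene in 9 lists of Wnt pathway roles, 1 point per gene, with a black bar at the median of the list. Orange and blue points passed the test as higher and lower and open points did not. The β-catenin targets hold 8 higher and 0 lower calls, while the making and release list holds 4 of each.

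**Figure D5:**
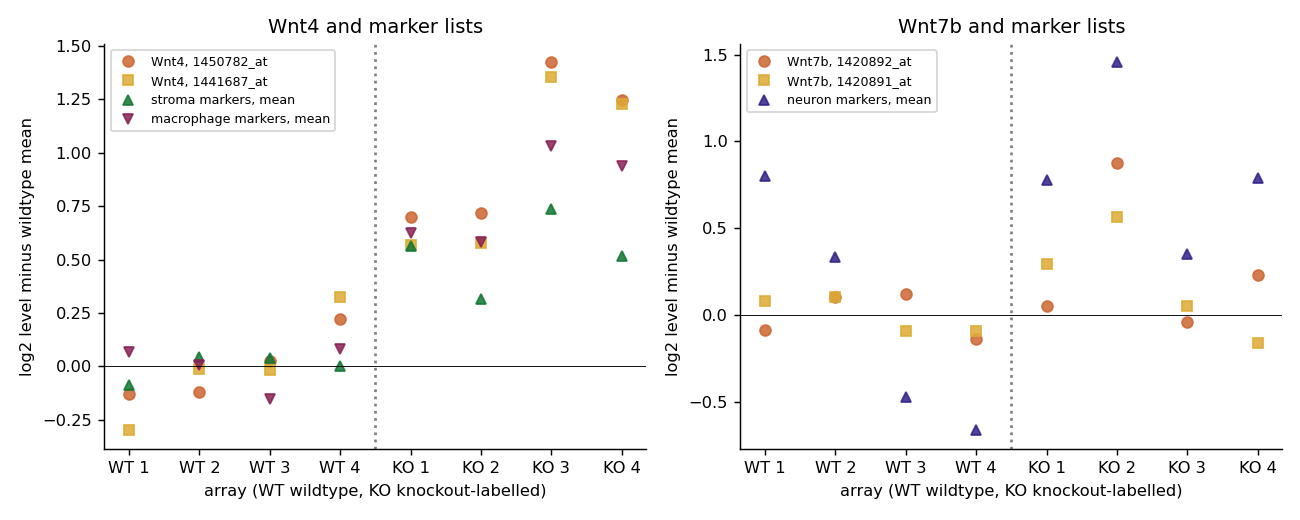
Log2 level minus the mean of the 4 wildtype arrays, for each of the 8 arrays. The left panel shows the 2 Wnt4 probe sets with the mean of 12 stroma and of 10 macrophage markers, and the right panel the 2 Wnt7b probe sets with the mean of 14 neuron markers. Wnt4 and the macrophage mean are highest in knockout-labelled replicates 3 and 4, and Wnt7b and the neuron mean in knockout-labelled replicate 2.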

How the data were processed

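The authors deposited 1 log2 level for each probe set and array, computed with RMA (background correction, normalization between arrays and probe summary), per the submitters' processing notes, which name no version. Scanner signals and detection calls were not used. RMA makes array distributions alike, so the total RNA content cannot be seen. The number of arrays limits the precision, and p-values measure the spread between the 4 samples of a group. The platform annotation gave 1 gene to 34945 of 45101 probe sets and several to 932, and 64 were controls. Only probe sets with 1 gene were named.

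Genotype was tested on these log2 values by limma 3.58.1 (R 4.3.3), using lmFit and then eBayes with a two-sided test and no covariate, once over 18193 genes, each by its brightest probe set over all arrays, and once over 45037 probe sets. The procedure was tested on simulated data. Intervals are from the fit over probe sets. Named genes were the members, Otx2, for each list up to 3 called genes of lowest p (1 gene where none passed), and the 5 genes most correlated with Wnt4. Members and lists were chosen with earlier results of these data known. Pathway lists are described by counts and medians, without a set test, and genes without a match are not analysed here.

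After group means were subtracted, arrays sharing a replicate number correlated over genes at 0.131, 0.232, 0.160 and 0.223. All were above 0.1, the limit set here for trying the replicate number as a block. Pairs with unlike numbers ran from -0.296 to 0.294. The highest was knockout-labelled replicate 3 with wildtype replicate 4, and knockout-labelled replicate 4 with wildtype replicate 1 was at 0.171. No label ties a number to a litter, so whether the numbers pair the arrays is not settled. The main fit has no block. The replicate block was an alternative, as were leaving out each array, array weights, a trended robust variance prior, a sex covariate (Xist minus Y-linked probe sets), 2 further normalizations, a filter on dim features, 2 other thresholds and 2 other ways to represent a gene.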

Additional observations from a re-analysis of the deposited data

Results flagged for a closer look

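In 4 of 108 groups of 4 arrays examined, 1 array stood apart from the rest of its group by more than Dixon's 95% critical value for 4 samples, which is set on the gap to the nearest array as a share of the group's range. Chance gives about 1 in 20. Wnt8b in wildtype replicate 2 read 5.498 log2 units, where the other 3 wildtype arrays read 5.027 to 5.037. Wnt1 in wildtype replicate 1 read 6.868, against 7.06 to 7.077 in the others. The dimmest Wnt7a probe set, 1458334_at, read 4.09 in wildtype replicate 3, against 3.612 to 3.643. Porcn read 6.762 in wildtype replicate 3, against 6.886 to 6.899 in the others.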

How the results depend on the processing

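Wnt4, Wnt5a and Wnt8b kept their direction and call in every alternative that measured them, with log2 fold changes of 0.89 to 1.13, -0.44 to -0.29 and -0.82 to -0.32. The filter on dim genes left no value for 6 ligands (Wnt1, Wnt2b, Wnt5b, Wnt7a, Wnt8b and Wnt11), and Wnt5b had none without shared probe sets. Leaving out 1 array gave 1 to 4 ligand genes and 2 to 6 ligand probe sets higher, and 21 to 37 pathway genes higher. With the sex covariate 1 ligand gene and 2 ligand probe sets were higher. At an adjusted p under 0.01 there were 1 ligand gene, 1 ligand probe set and 17 pathway genes higher. Over features above the median level 1 ligand gene was lower. The Wnt5a probe set 1456976_at changed sign, from -0.016 to 0.087 in the fits without 1 array and at -0.0074 with arrays centred on their medians, and Wnt7a was at 0.023 with the mean of its probe sets. With the replicate block 4 ligand genes were higher and 2 lower, and among the genes named it changed only the calls of Wnt5b, Bcl9, Dvl1, Lef1 and Adgra2. The cause was not tested, apart from the filter, which removes genes. Array signal over background was not used here, which limits what can be said of the dim ligands Wnt2b and Wnt8b.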

Other observations

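The labels do not give the sex of the embryos. Xist minus the mean of the Y-linked probe sets was between 4.05 and 7.81 log2 units in 7 of the arrays and -0.129 in wildtype replicate 1. By brightest probe set, that array also had the lowest reading of the 8 for Wnt1, Wnt3a, Wnt4 and Wnt11. For Wnt4 it read 8.340, against 8.345 in wildtype replicate 2. Each of these genes had a higher mean in the knockout-labelled arrays, and a link of the low readings with sex was not tested.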
